A study of Mus musculus with 24 samples.

Results

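The genes for fibronectin, 3 thrombospondins and 6 other matrix and matricellular proteins were followed in quiescent and cycling cells sorted from mouse mammary tumours. They were taken by symbol, matched without regard to case: Fn1, Thbs1, Thbs2, Thbs3, Tnc, Sparc, Spp1, Postn, Tgfbi and Fbln2. All 10 were found in each of the 3 count tables, out of 24034 symbols that the tables share, and all 10 passed the default filter on low counts in every line. The tumours grew from 4T07, D2A1 or EMT6 cells, 3 mouse mammary carcinoma lines that all expressed mCherry together with an mVenus-p27K fusion, a reporter that builds up in resting cells. For each tumour 250000 cells were put into the mammary fat pad of a female Balb/cJ mouse, and the tumour was taken at day 14. It was digested to single cells, stained for CD45 and with DAPI, and sorted into p27K high cells, the quiescent population, and p27K negative cells, the cycling population. The 6 groups were p27K high and p27K negative cells of 4T07, of D2A1 and of EMT6, with 4 libraries each from 4 tumours, 24 libraries in all. Both gates came from the same tumour, and each line was sequenced in a run of its own, so line and run cannot be told apart.

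Fibronectin is a large glycoprotein that cells assemble into fibrils through integrins and that binds collagen, heparin and growth factors. Matricellular proteins are secreted into the matrix but act mainly as signals rather than as scaffold: they bind cell surface receptors, proteases and growth factors, and they are low in most resting adult tissues and rise in wounds and tumours. Thrombospondin-1 can activate latent TGF-beta and binds CD47 and CD36, tenascin-C and periostin mark wound beds and tumour stroma, and osteopontin, the product of Spp1, binds integrins and CD44. Many of these genes are known targets of TGF-beta signalling, and Tgfbi carries that in its name.

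Levels below are CPM, a gene's count relative to its library's total after scaling by the trimmed mean of M-values (TMM) within a line, in the order of tumours 1 to 4. A change is log2 of p27K high over p27K negative cells within tumours, with its standard error (SE) over 4 tumours, and a gene was called at an adjusted p under 0.05 from edgeR's quasi-likelihood test over all genes. Library totals were 27887221 to 45460880 counts in p27K high and 28961831 to 35197694 in p27K negative cells of 4T07. They were 6727594 to 20174767 in p27K high and 1335433 to 15641189 in p27K negative cells of D2A1, and 13769682 to 20142013 in p27K high and 16988365 to 17508301 in p27K negative cells of EMT6. The sort was visible in the RNA: Mki67, a marker of cycling cells, changed by -6.52, -5.92 and -5.31 between p27K high and p27K negative cells of 4T07, D2A1 and EMT6, and Cdkn1b, the gene of p27, by 0.89, 0.46 and 0.54. The cells were sorted on a p27 fusion, whose RNA was not told apart from that of Cdkn1b. The 9 mammary epithelial markers summed to 438 to 577 CPM in p27K high and 572 to 689 CPM in p27K negative cells of 4T07, to 95.5 to 204 CPM in p27K high and 63.7 to 609 CPM in p27K negative cells of D2A1, and to 646 to 904 CPM in p27K high and 793 to 1081 CPM in p27K negative cells of EMT6. Of those tested, 2 of 7 were higher and 2 lower in 4T07, 1 of 3 was lower in D2A1, and 1 of 7 was higher and 1 lower in EMT6. In D2A1 Krt18 had 91.3 to 196 CPM in p27K high and 58.4 to 212 CPM in p27K negative cells and Krt8 had 1.49 to 12.7 CPM in p27K high and 3.71 to 143 CPM in p27K negative cells, while Epcam did not exceed 10.4 CPM in any library of the 3 lines. Markers of blood, vessel and stromal cells also differed between gates in some lines, and these values are given beside the genes they move with. Counts of markers called are to be read beside the shares of all genes called, which are given below for each line.

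In every line more of the 10 genes were called higher than lower in p27K high cells. Fn1, Spp1, Thbs1 and Fbln2 were higher in all 3 lines, and Tnc was lower in all 3. The share of all genes called alike in all 3 lines was not computed. Thbs2, Thbs3, Sparc, Postn and Tgfbi were called in some lines and not in others, and Thbs3 and Tgfbi were called in opposite directions in different lines. In bulk RNA fewer cells that express a gene and less of its RNA per cell cannot be told apart. In 4T07, 6 of the 10 were higher, beside 22.1% of all genes tested, 2 were lower, beside 23.6%, and 2 were not called. D2A1 had 5 higher, beside 14.9% of all genes, 2 lower, beside 14.7%, and 3 not called. EMT6 had 6 higher, beside 24.1%, 2 lower, beside 25.1%, and 2 not called. The median change of the 10 was 0.41 in 4T07, 0.30 in D2A1 and 0.46 in EMT6, against medians of all genes tested of -0.0033, 0.022 and 0.018. The 10 genes were chosen with earlier results of these data known, so these counts and medians are no test of the set. Scaling by total counts moved the median of all genes in 4T07 by -0.135 and the share of higher genes among all calls to 33.2%, against 48.3% with TMM, and of the 10 genes 5 were then higher and 2 lower. Averaged over the lines, 6 were higher, beside 28.3% of genes, 3 were lower, beside 24%, and only Thbs3 was not called. EMT6 gates are paired by column numbers rather than labels, and without the pairing Fbln2, Thbs3, Tnc and Tgfbi were not called there (adjusted p = 0.0641, 0.123, 0.108 and 0.229).

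**Figure D1:**
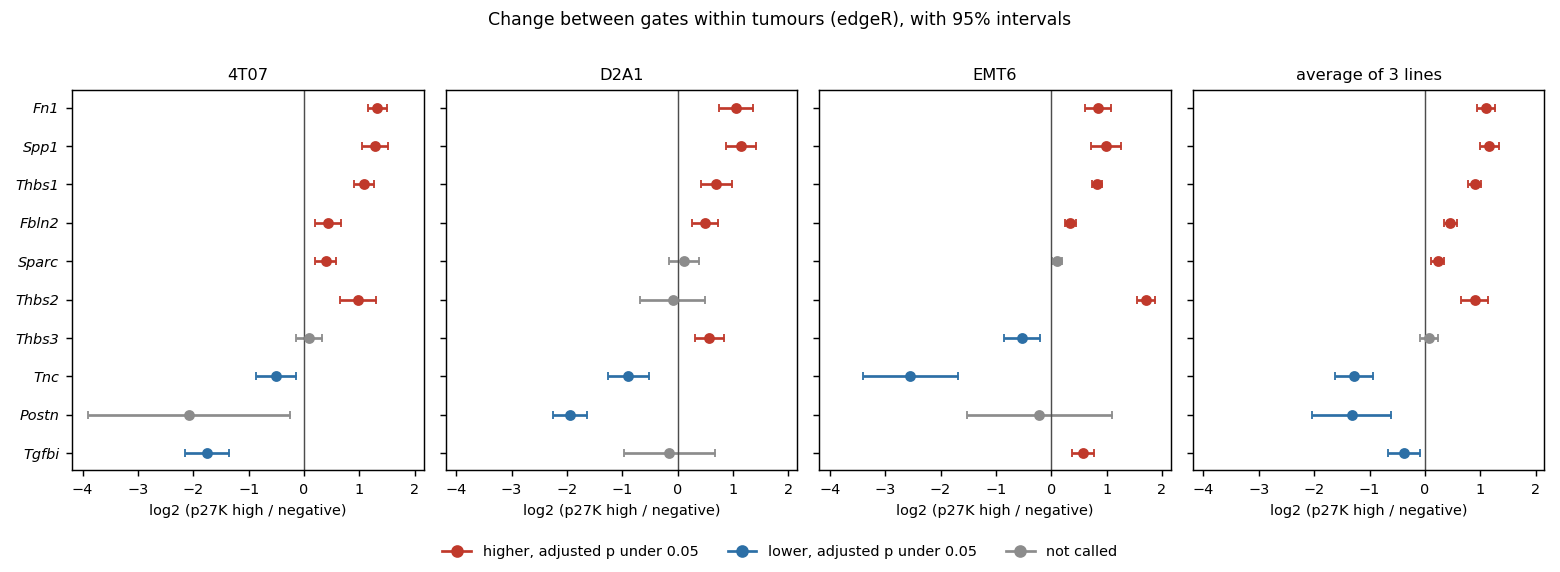
Change of each gene between gates within tumours (log2 of p27K high over p27K negative, points) with 95% intervals (bars), in 4 tumours of each line and averaged over the 3 lines; red and blue mark an adjusted p under 0.05. Fn1, Spp1, Thbs1 and Fbln2 lie right of 0 in every panel and Tnc lies left of it, while Thbs3 and Tgfbi change sides between lines.

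All 4 p27K high libraries lay above, or all below, the 4 p27K negative libraries for 5 of the 10 genes in 4T07, beside 38% of all genes. In D2A1 this held for 6 genes, beside 30.9%, and in EMT6 for 4, beside 34.3%. The genes that separated the gates in every line were Fn1 and Spp1, and the share of all genes that did so was not computed.

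Promoter sequence is shown for 4 genes with different behaviour: Spp1 and Fbln2, which were higher in all lines, Tnc, which was lower in all lines, and Tgfbi, which was lower in 4T07 and higher in EMT6. Each run is 300 bases long from RefSeq on GRCm38.p6, 5′ to 3′ on the gene's strand, from 250 bases before the annotated start to 50 after it. Capitals mark motif matches on either strand, none of which overlaps another. Spp1 is at chr5:104434861-104435160, plus strand. Fbln2 is at chr6:91212514-91212813, plus strand. Tnc is at chr4:64046887-64047186, minus strand. Tgfbi is at chr13:56609336-56609635, plus strand.
Spp1: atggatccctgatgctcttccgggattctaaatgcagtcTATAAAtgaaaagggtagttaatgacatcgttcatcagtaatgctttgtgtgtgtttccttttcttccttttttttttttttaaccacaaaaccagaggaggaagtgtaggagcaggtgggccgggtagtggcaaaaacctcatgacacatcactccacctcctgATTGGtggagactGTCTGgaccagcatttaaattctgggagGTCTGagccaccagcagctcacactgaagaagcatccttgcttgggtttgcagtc
Fbln2: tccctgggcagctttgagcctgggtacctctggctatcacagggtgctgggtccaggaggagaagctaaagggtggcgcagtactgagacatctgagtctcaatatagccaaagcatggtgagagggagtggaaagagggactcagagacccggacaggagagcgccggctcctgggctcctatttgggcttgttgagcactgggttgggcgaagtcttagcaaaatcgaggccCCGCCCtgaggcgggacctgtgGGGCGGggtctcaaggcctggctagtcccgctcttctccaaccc
Tnc: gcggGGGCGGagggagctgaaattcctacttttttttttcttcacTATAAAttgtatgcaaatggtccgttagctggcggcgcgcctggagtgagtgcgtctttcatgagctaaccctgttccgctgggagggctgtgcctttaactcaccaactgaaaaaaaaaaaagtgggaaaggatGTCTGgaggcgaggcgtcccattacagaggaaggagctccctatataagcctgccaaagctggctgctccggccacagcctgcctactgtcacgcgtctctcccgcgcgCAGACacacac
Tgfbi: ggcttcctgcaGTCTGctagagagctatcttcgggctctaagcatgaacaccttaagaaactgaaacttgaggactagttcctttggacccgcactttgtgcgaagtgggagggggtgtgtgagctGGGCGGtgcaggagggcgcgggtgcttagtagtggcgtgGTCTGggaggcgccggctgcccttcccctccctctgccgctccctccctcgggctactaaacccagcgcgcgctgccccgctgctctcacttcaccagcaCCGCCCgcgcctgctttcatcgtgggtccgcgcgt
The SMAD box core CAGAC, the letters that SMAD proteins of the TGF-beta pathway bind, was found at -33 and -5 from the start in Spp1, at -70 and 40 in Tnc and at -239 and -85 in Tgfbi, but not in Fbln2. It is in 49.5% of the 32544 promoters of this length, so a match is common. TATAAA was at -211 in Spp1 and at -205 in Tnc, and is in 13.6% of promoters. CCAAT was at -46 in Spp1, with 37.4% of promoters holding it, and GGGCGG, the GC box, was in Tnc, Tgfbi and Fbln2 and is in 35.9%. The AP-1 site TGANTCA, the cyclic AMP response element TGACGTCA, the hypoxia response core ACGTG, the E2F site TTTCCCGC and the CHR element TTTGAA had no match in these 4 windows. They are in 7.79%, 1.8%, 19.7%, 1.08% and 17.8% of all promoters. RefSeq lists another start for Spp1 and for Tnc. The second Spp1 window, at chr5:104435942-104436241, had CAGAC at -41 and the CHR letters TTTGAA at -216, with no TATAAA or CCAAT. The second Tnc window, at chr4:64046966-64047265, overlaps the first and had TATAAA at -126, CAGAC at 10 and GGGCGG at -167. Windows were also searched for Thbs2, Thbs3, Sparc and Postn, and none was used for Fn1 and Thbs1.

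The 10 genes made up 6.27% to 6.87% of all counts in p27K high cells of 4T07, against 2.71% to 3.15% in its p27K negative cells. They held 2.68% to 3.41% in p27K high and 1.46% to 1.56% in p27K negative cells of D2A1, and 1.19% to 1.75% in p27K high and 0.70% to 0.88% in p27K negative cells of EMT6. The lowest share in p27K high cells was above the highest in p27K negative cells in each line. Fn1 had more counts than any other of 23915 genes with an exon length in both gates of 4T07 and of D2A1, and took places 2 and 8 in p27K high and p27K negative cells of EMT6.

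**Figure D2:**
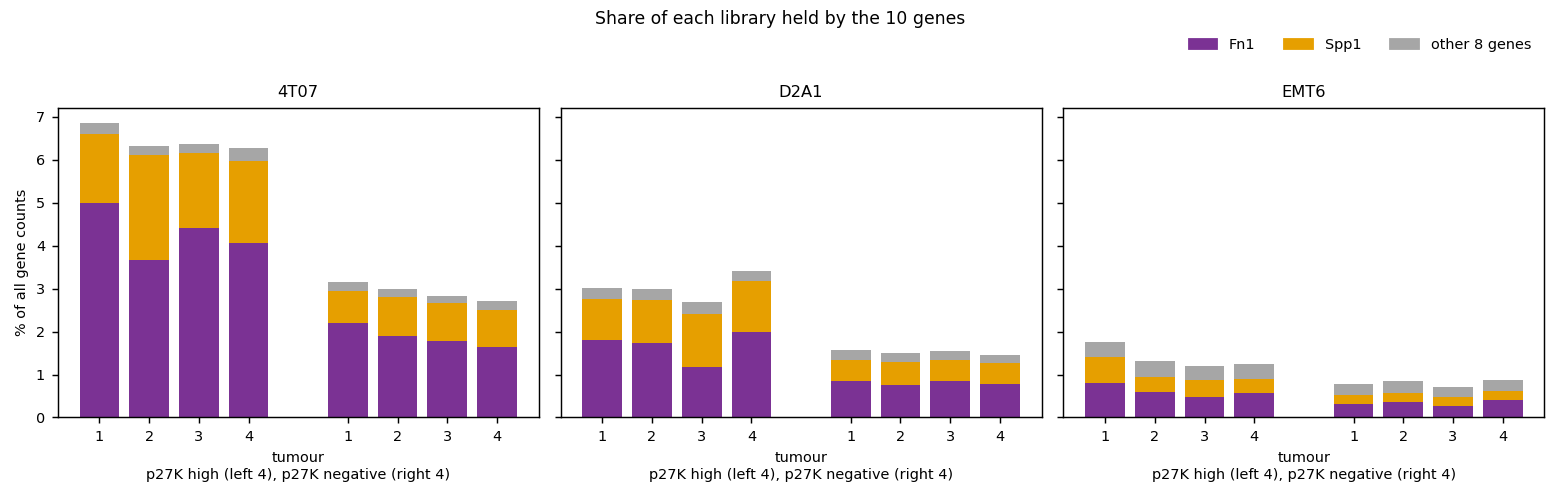
Share of all gene counts (%) held by Fn1, Spp1 and the other 8 genes, with 1 bar for each library and tumours numbered 1 to 4 within a gate. The p27K high bars reach 6.27% to 6.87% in 4T07, 2.68% to 3.41% in D2A1 and 1.19% to 1.75% in EMT6, each above every p27K negative bar of its line.

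Per length, Spp1 led the 10 genes in every group. Its level was 12315 ± 2967 CPM per kb of exon in p27K high and 4958 ± 449 in p27K negative cells of 4T07 (SD, n = 4 each). It was 6648 ± 887 CPM per kb in p27K high and 3006 ± 153 in p27K negative cells of D2A1, and 2553 ± 785 in p27K high and 1252 ± 61.0 in p27K negative cells of EMT6. Among the 23915 genes this was place 1 in both gates of 4T07, places 1 and 2 in p27K high and p27K negative cells of D2A1, and places 3 and 9 in p27K high and p27K negative cells of EMT6. Part of its exon length, 18.8%, is also annotated to a gene on the same strand, Gm42793, so reads there are shared.

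Fn1 followed, with 3838 ± 469 CPM per kb in p27K high and 1534 ± 208 in p27K negative cells of 4T07. D2A1 had 1449 ± 276 CPM per kb in p27K high and 689 ± 43.1 in p27K negative cells, and EMT6 had 523 ± 112 in p27K high and 290.0 ± 52.7 in p27K negative cells. Sparc came next with group means of 201 to 289 CPM per kb, then Thbs1 and Fbln2 with 65.3 to 210, and the other 5 genes stayed below 26. Between neighbours in this order, the library ranges did not overlap for Spp1 and Fn1 in any group. Fn1 and Sparc overlapped in p27K negative cells of EMT6 alone, and Thbs1 and Fbln2 overlapped in 5 of 6 groups. The low genes took different places by line. Thbs3 was 6th in both gates of D2A1, while Tgfbi was 6th in both gates of EMT6 and last in both gates of D2A1. Libraries were scaled within each line, so these levels are a description across lines.

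**Figure D3:**
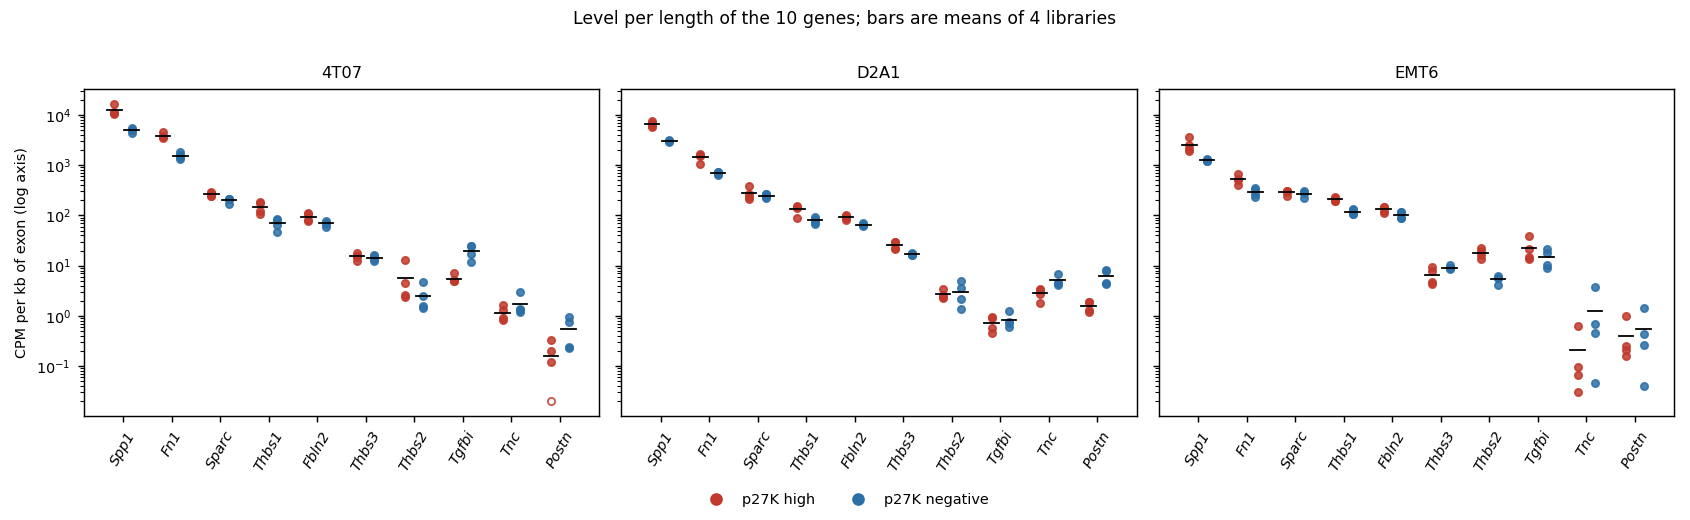
Level of each gene in CPM per kb of exon (log axis) in the libraries of each line, p27K high in red left of p27K negative in blue, with black bars at the mean of 4 libraries and an open symbol for a value of 0. Spp1 and Fn1 lie above all other genes except that Fn1 meets Sparc in p27K negative EMT6 cells, and Postn and Tnc are at or near the bottom in 4T07 and EMT6.

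Fn1 encodes fibronectin, on chromosome 1 at 71585520 to 71653200, minus strand (GENCODE on GRCm38, as all positions here). It had 52689.5, 41494, 44513 and 40704 CPM in p27K high cells of 4T07, against 20971, 18536, 16874 and 15300.4 CPM in p27K negative cells. D2A1 tumours had 18186, 17448, 12314 and 19764 CPM in p27K high cells and 8419.8, 7489, 8523 and 7757 CPM in p27K negative cells. EMT6 tumours had 7849, 6069.8, 4671 and 5835 CPM in p27K high cells and 3119.5, 3718, 2667 and 4048 CPM in p27K negative cells. Every p27K high library exceeded every p27K negative library of its line. The change was 1.33 ± 0.08 in 4T07 (adjusted p = 1.41e-05), 1.05 ± 0.14 in D2A1 (adjusted p = 0.000109) and 0.84 ± 0.10 in EMT6 (adjusted p = 0.000156). The average, 1.11 ± 0.08, is a fold of 2.15 and was higher in 12 of 12 tumours (adjusted p = 3.19e-09). A difference of the change between lines was not called (adjusted p = 0.137), but it was without D2A1 tumour 3 (adjusted p = 0.0345) or EMT6 tumour 1 (adjusted p = 0.0396). The interval of the difference, 4T07 minus EMT6, was 0.10 to 0.91.

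The genes whose 12 within-tumour changes lay closest to those of Fn1 were Pdgfra, a platelet-derived growth factor receptor, Fbxl20 and Abhd18. Their root mean square distances were 0.177, 0.192 and 0.219 on the log2 scale, against a median of 1.16 over 9637 genes. Pdgfra changed by 1.16, 1.07 and 0.81 in 4T07, D2A1 and EMT6. Pdgfra is also 1 of the 15 fibroblast markers listed for these samples. For Thbs1 the closest were Nedd9, an adhesion scaffold gene, Antxr1, which encodes a collagen-binding membrane protein, and Synrg, at 0.177, 0.182 and 0.186 against a median of 0.951. For Sparc they were Eif3h, a translation initiation subunit, Naxd and P3h1, a collagen prolyl hydroxylase, at 0.104, 0.127 and 0.128 against a median of 0.484.

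The summed level of fibroblast markers was also higher in p27K high cells of 4T07 and EMT6, and its part in the changes of Fn1, Spp1, Thbs1, Thbs2 and Fbln2 was not tested. In 4T07, 5 of 13 tested were higher in p27K high cells, 3 were lower and 5 were not called, with a median change of -0.32. The 15 markers summed to 1728, 2418, 1604 and 2383 CPM in p27K high cells, against 684, 858, 674 and 761 CPM in p27K negative cells. Most of this was Dcn, which encodes the matrix proteoglycan decorin, at 704 to 1566 CPM in p27K high and 155 to 388 CPM in p27K negative cells, and Pdgfra, at 669 to 736 CPM in p27K high and 295 to 328 CPM in p27K negative cells. In EMT6, 7 of 10 tested were higher, 1 was lower and 2 were not called, with a median change of 0.55. The sums there overlapped, at 7753, 8616, 7540.2 and 10078 CPM in p27K high and 6388, 7024, 5674 and 7879.8 CPM in p27K negative cells, and the p27K high library was the higher in every tumour. The highest of these markers in EMT6 was Col1a2, a collagen I chain, at 4117 to 5508 CPM in p27K high and 3305 to 4320.1 CPM in p27K negative cells. Up to 2 of the 15 were at 0 in a p27K high library of 4T07 and up to 1 in a p27K negative one, and up to 2 in either gate of EMT6.

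Fbln2 encodes fibulin-2, which binds fibronectin and elastic fibre proteins (chromosome 6, 91212455 to 91272540, plus strand). It had 723, 494, 527 and 674 CPM in p27K high cells of 4T07 and 497, 459, 381 and 433 CPM in p27K negative cells. D2A1 had 638, 576, 623 and 509 CPM in p27K high and 411, 395, 456 and 402 CPM in p27K negative cells. EMT6 had 704, 928, 790.4 and 921 CPM in p27K high and 568, 755, 567 and 752 CPM in p27K negative cells. The gates were apart in D2A1 and overlapped in 4T07 and EMT6, but within a tumour the p27K high library was higher in 12 of 12. The changes were small and close to each other, 0.44 ± 0.10 in 4T07 (adjusted p = 0.0102), 0.49 ± 0.11 in D2A1 (adjusted p = 0.00492) and 0.35 ± 0.05 in EMT6 (adjusted p = 0.000212). In 4T07 the call was lost without tumour 1 (adjusted p = 0.0669) or tumour 4 (adjusted p = 0.0573). It was also lost there with scaling by total counts, with a change of 0.30 (adjusted p = 0.0612). In D2A1 it was lost without tumour 1 (adjusted p = 0.0616) or tumour 2 (adjusted p = 0.0524). The average, 0.46 ± 0.05, was called at an adjusted p of 2.28e-06.

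Thbs1 encodes thrombospondin-1, an inhibitor of vessel growth (chromosome 2, 118111876 to 118127133, plus strand). Its levels were 1077, 755, 633 and 1126 CPM in p27K high cells of 4T07, against 504, 399.5, 282 and 499 CPM in p27K negative cells. They were 840.4, 915, 546 and 892 CPM in p27K high and 577, 508, 416 and 447 CPM in p27K negative cells of D2A1. They were 1169, 1395, 1199 and 1328 CPM in p27K high and 637, 818, 653 and 782 CPM in p27K negative cells of EMT6. The gates did not overlap in 4T07 and EMT6, and in D2A1 they overlapped through the p27K high library of tumour 3. The change was 1.09 ± 0.08, 0.70 ± 0.13 and 0.82 ± 0.04 in 4T07, D2A1 and EMT6 (adjusted p = 4.9e-05, 0.00109 and 3.17e-07). The average of 0.90 ± 0.06 is a fold of 1.87 and was higher in 12 of 12 tumours (adjusted p = 5.16e-10). A difference between lines was not called (adjusted p = 0.117), but it was with DESeq2 (adjusted p = 0.0439). The difference 4T07 minus D2A1, 0.36 ± 0.14 (adjusted p = 0.0705), was called with DESeq2 (adjusted p = 0.0162) or its size factors (adjusted p = 0.0456). It was also called with the stricter filter (adjusted p = 0.0433) and without 4T07 tumour 2 (adjusted p = 0.0358) or D2A1 tumour 4 (adjusted p = 0.0308).

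Thbs2 encodes thrombospondin-2, a relative of thrombospondin-1 that does not activate latent TGF-beta (chromosome 17, 14665500 to 14694235, minus strand). It followed Thbs1 in 4T07 and EMT6 but was not called in D2A1. In 4T07 it had 31.6, 16.7, 18.1 and 91.3 CPM in p27K high and 17.1, 9.84, 10.9 and 33.6 CPM in p27K negative cells. In D2A1 it had 16.5, 24.3, 18.6 and 15.7 CPM in p27K high and 34.2, 9.82, 25.5 and 15.6 CPM in p27K negative cells. In EMT6 it had 155, 114, 96.8 and 137 CPM in p27K high and 40.3, 40.5, 29.1 and 43.4 CPM in p27K negative cells. The EMT6 gates were far apart, and in 4T07 tumour 4 was high in both gates, so the gates overlapped although each pair moved up. The changes were 0.97 ± 0.14 in 4T07 (adjusted p = 0.00135) and 1.71 ± 0.07 in EMT6 (adjusted p = 9.45e-08), a fold of 3.27 and the largest rise of the 10 in any line. In D2A1 the change was -0.09 ± 0.27 (95% interval -0.68 to 0.50, adjusted p = 0.839), and without tumour 1 or tumour 3 its sign turned, to 0.22 and 0.01.

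Thbs3 encodes thrombospondin-3, a pentameric member of the family (chromosome 3, 89215180 to 89226837, plus strand). Its exons overlap Mtx1, a protein-coding gene on the other strand, over 6.59% of their length, and strand use in the counting is not given in the sources used here. In 4T07 it had 72.7, 60.9, 75.4 and 84.7 CPM in p27K high and 76.2, 64.9, 58.5 and 77.3 CPM in p27K negative cells. D2A1 had 141, 105, 141 and 109.8 CPM in p27K high and 86.9, 79.1, 83.6 and 79.5 CPM in p27K negative cells. EMT6 had 44.8, 23.0, 21.2 and 38.5 CPM in p27K high and 43.6, 42.6, 40.7 and 49.5 CPM in p27K negative cells. The D2A1 gates were apart with p27K high above, and in 4T07 and EMT6 they overlapped. The change was 0.57 ± 0.12 in D2A1 (adjusted p = 0.00256) and -0.52 ± 0.14 in EMT6 (adjusted p = 0.0143), where tumour 1 went the other way. The EMT6 call was lost without tumour 2 (adjusted p = 0.0735) or tumour 3 (adjusted p = 0.0925). In 4T07 it was 0.08 ± 0.10 (95% interval -0.15 to 0.32, adjusted p = 0.523), and its sign turned to -0.05 with scaling by total counts and to -0.01 without tumour 3.

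**Figure D4:**
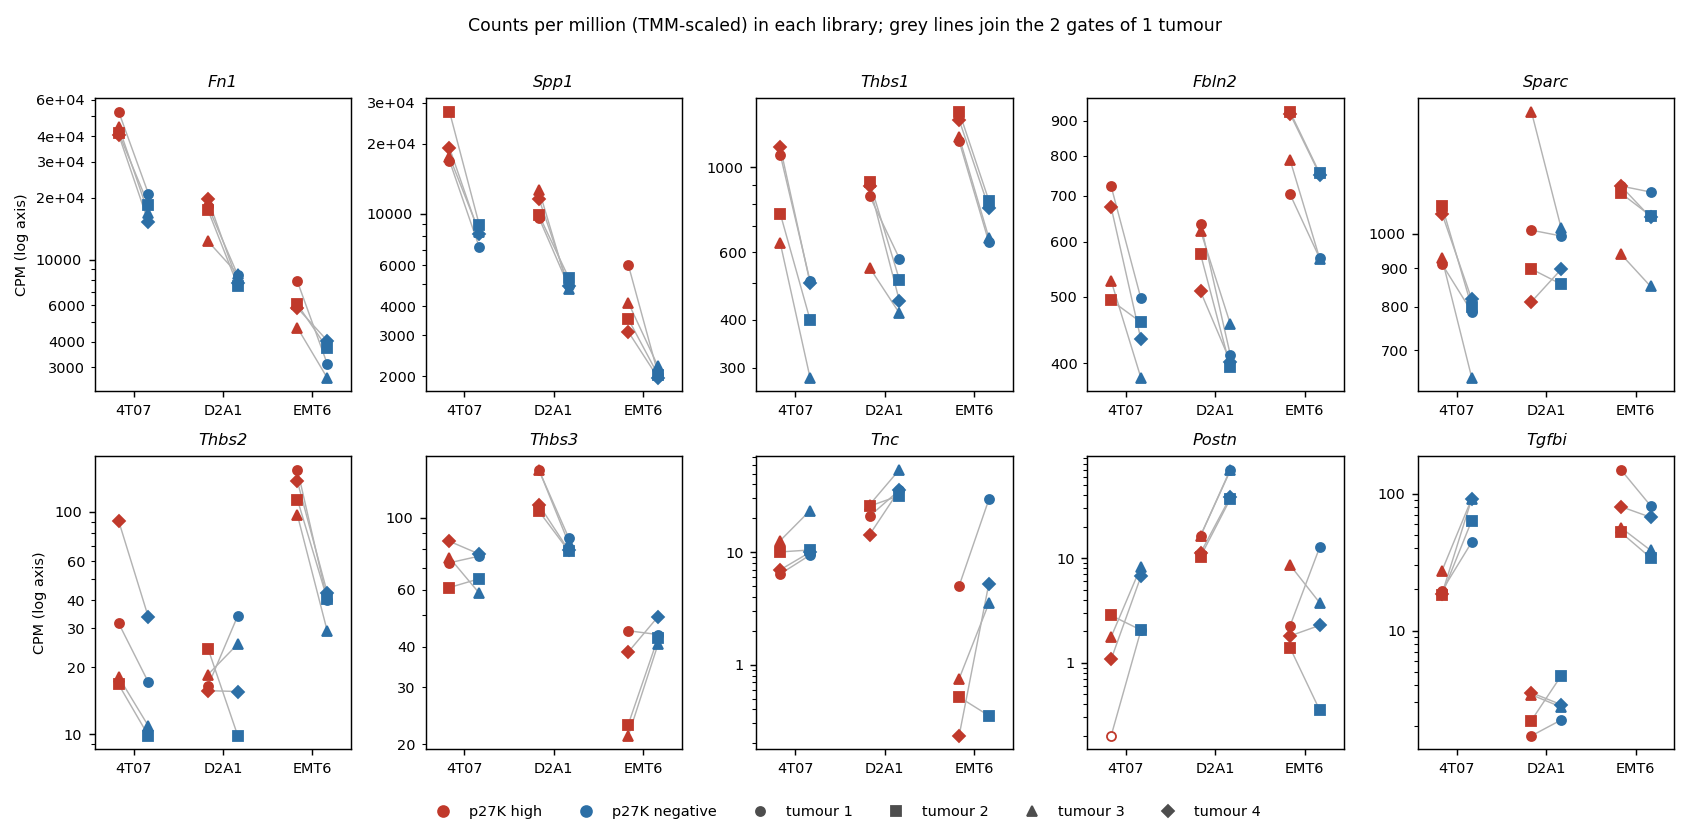
CPM of each gene (log axis) in every library, p27K high in red left of p27K negative in blue, with grey lines joining both gates of 1 tumour and an open symbol for a value of 0. The lines slope down in all 12 tumours for Fn1, Spp1, Thbs1 and Fbln2, and Tgfbi slopes up in 4T07 and down in EMT6.

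Spp1 encodes osteopontin, a phosphoprotein ligand of integrins and CD44 (chromosome 5, 104435118 to 104441050, plus strand). It had 16908, 27488, 17593 and 19188 CPM in p27K high cells of 4T07, against 7186, 8971, 8342 and 8184 CPM in p27K negative cells. D2A1 cells had 9619, 9888, 12700.2 and 11619 CPM in the p27K high and 4872, 5318, 4731 and 4897 CPM in the p27K negative gate. EMT6 cells had 6038, 3528, 4151 and 3110.5 CPM in the p27K high and 2049, 2029, 2206 and 1971 CPM in the p27K negative gate. No p27K high library came down to the p27K negative range in any line, and the p27K negative libraries of a line were close to each other. The changes of 1.29 ± 0.10 in 4T07 (adjusted p = 7.34e-05), 1.14 ± 0.13 in D2A1 (adjusted p = 1.81e-05) and 0.98 ± 0.12 in EMT6 (adjusted p = 0.000142) were not called different from each other (adjusted p = 0.36). The interval of the difference was -0.06 to 0.73 for 4T07 minus EMT6. The average of 1.17 ± 0.08 is a fold of 2.25 (adjusted p = 1.04e-09). Macrophages also make osteopontin, and all 18 macrophage and monocyte markers were lower in p27K high cells of 4T07, with summed levels of 208.6 to 238 CPM in p27K high and 704 to 1478 CPM in p27K negative cells. In D2A1 they summed to 145 to 190 CPM in p27K high and 76.9 to 144 CPM in p27K negative cells, with 1 of 10 tested higher and 1 lower. Most of the p27K high sum there was Cd14, at 113 to 163 CPM, against 45.4 to 73.5 CPM in p27K negative cells. The median change of the 10 tested in D2A1 was -0.94. In EMT6 the 18 markers summed to 51.6 to 76.8 CPM in p27K high and 42.9 to 70.1 CPM in p27K negative cells, with 3 of 8 tested higher and 2 lower. Their part in the change of Spp1 was not tested.

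Sparc encodes SPARC, or osteonectin, a collagen-binding protein that limits cell spreading (chromosome 11, 55394500 to 55423183, minus strand). It was high in both gates and changed little. Levels in 4T07 were 911, 1089, 927 and 1063 CPM in p27K high and 787, 799, 643 and 818 CPM in p27K negative cells. Levels in D2A1 were 1010.4, 897, 1452 and 812 CPM in p27K high and 993, 857, 1017 and 896 CPM in p27K negative cells. Levels in EMT6 were 1156, 1132, 939.6 and 1157 CPM in p27K high and 1135, 1056, 851 and 1051 CPM in p27K negative cells. The gates were apart in 4T07 alone, where the change was 0.39 ± 0.08 (adjusted p = 0.00629). It was 0.11 ± 0.13 in D2A1 (95% interval -0.16 to 0.39, adjusted p = 0.542), and -0.02 there without tumour 3. In EMT6 it was 0.10 ± 0.04 (95% interval 0.01 to 0.19, adjusted p = 0.0567), and it was called without tumour 1 (adjusted p = 0.00643), with DESeq2's size factors (adjusted p = 0.0416), with total counts (adjusted p = 0.0483) and with the stricter filter on low counts (adjusted p = 0.028). A difference between lines was not called (adjusted p = 0.179) except without D2A1 tumour 3 (adjusted p = 0.0205), and the average was 0.23 ± 0.06 (adjusted p = 0.00186), higher in 11 of 12 tumours.

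Tnc encodes tenascin-C, which binds fibronectin and weakens cell adhesion to it (chromosome 4, 63959785 to 64047015, minus strand). It was low, and it was the 1 gene of the 10 that was lower in p27K high cells in every line. In 4T07 it had 6.41, 10.05, 12.7 and 6.97 CPM in p27K high and 9.42, 10.5, 23.4 and 9.99 CPM in p27K negative cells. In D2A1 it had 20.9, 25.7, 26.4 and 14.3 CPM in p27K high and 35.6, 31.8, 54.2 and 35.9 CPM in p27K negative cells. In EMT6 it had 5.01, 0.516, 0.748 and 0.233 CPM in p27K high and 29.4, 0.352, 3.51 and 5.26 CPM in p27K negative cells. The gates were apart in D2A1 and overlapped in 4T07 and EMT6. In EMT6 tumour 1 had the highest level in both gates, and tumour 2 went the other way. The change was -0.89 ± 0.17 in D2A1 (adjusted p = 0.0018) and -2.55 ± 0.38 in EMT6 (adjusted p = 0.000491). In 4T07 it was -0.51 ± 0.16 (adjusted p = 0.0314), and the call was lost without tumour 1 (adjusted p = 0.117), tumour 3 (adjusted p = 0.159) or tumour 4 (adjusted p = 0.0961). The average was -1.28 ± 0.16 (adjusted p = 3.82e-06), with 1 of 12 tumours higher. Counts of Tnc in EMT6 were as low as 4 in a p27K high and 6 in a p27K negative library.

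Postn encodes periostin, a ligand of integrins that is best known from stromal fibroblasts (chromosome 3, 54361109 to 54391037, plus strand). In D2A1 it had 16.4, 10.4, 16.4 and 11.2 CPM in p27K high and 70.5, 37.0, 69.2 and 38.6 CPM in p27K negative cells. In 4T07 it had 0, 2.84, 1.77 and 1.08 CPM in p27K high and 2.04, 2.06, 8.28 and 6.70 CPM in p27K negative cells. In EMT6 it had 2.24, 1.40, 8.63 and 1.81 CPM in p27K high and 12.8, 0.352, 3.74 and 2.28 CPM in p27K negative cells. The D2A1 gates were far apart, and those of 4T07 and EMT6 overlapped. The D2A1 change was -1.94 ± 0.14 (adjusted p = 2.68e-07), to 0.26 of the p27K negative level. In 4T07 it was -2.08 ± 0.78 (95% interval -3.90 to -0.25, adjusted p = 0.0638), and -2.83 without tumour 2 (adjusted p = 0.00024). In EMT6 it was -0.22 ± 0.58 (95% interval -1.53 to 1.10, adjusted p = 0.783), but 0.82 without tumour 1 (adjusted p = 0.0283). A difference between lines was not called with all tumours (adjusted p = 0.226) and was without EMT6 tumour 1 (adjusted p = 0.0296). The average was -1.32 ± 0.34 (adjusted p = 0.00345), and -0.98 without EMT6 tumour 1 (adjusted p = 0.012).

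Tgfbi encodes the TGF-beta-induced protein, a relative of periostin that binds collagen and integrins (chromosome 13, 56609523 to 56639562, plus strand). It was lower in p27K high cells of 4T07 and higher in those of EMT6. In 4T07 it had 19.5, 18.3, 27.3 and 18.5 CPM in p27K high and 44.2, 63.5, 91.9 and 91.4 CPM in p27K negative cells. In EMT6 it had 149.7, 52.2, 56.5 and 80.4 CPM in p27K high and 81.5, 34.0, 38.5 and 67.1 CPM in p27K negative cells. In D2A1 it had 1.71, 2.21, 3.40 and 3.52 CPM in p27K high and 2.23, 4.68, 2.77 and 2.88 CPM in p27K negative cells, on as few as 3 counts a library. All 4T07 p27K high libraries lay below all p27K negative ones. EMT6 gates overlapped, but all 4 pairs moved up. The change was -1.76 ± 0.17 in 4T07 (adjusted p = 0.000216) and 0.58 ± 0.09 in EMT6 (adjusted p = 0.00055). In D2A1 it was -0.15 ± 0.38 (95% interval -0.97 to 0.67, adjusted p = 0.807), and 0.17 without tumour 2. The average of -0.38 ± 0.13 (adjusted p = 0.027), with 6 of 12 tumours higher, joins unlike lines and was not called without 4T07 tumour 2 (adjusted p = 0.0521) or D2A1 tumour 2 (adjusted p = 0.0958).

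Markers of other cells moved with some of these falls, and their part in them was not tested. In 4T07 all 18 macrophage and monocyte markers were lower in p27K high cells, and Tgfbi is known from macrophages. Their summed level was 235, 227, 208.6 and 238 CPM in p27K high and 704, 876, 1478 and 936 CPM in p27K negative cells, and none of the 18 was at 0 in any library. Lyz2, the marker with the highest mean, had 20.5 to 26.0 CPM in p27K high and 114 to 346 CPM in p27K negative cells, and Ptprc, which encodes CD45, had 4.56 to 12.5 CPM in p27K high and 19.3 to 38.6 CPM in p27K negative cells. Neutrophil markers also differed in 4T07, where 4 of 7 tested were lower in p27K high cells and 3 were not called. The 8 of that list summed to 34.6 to 66.0 CPM in p27K high and 81.7 to 92.3 CPM in p27K negative cells. In EMT6, where Tgfbi was higher, 3 of 8 tested macrophage markers were higher and 2 were lower.

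Vessel and stromal markers stood beside Postn and Tnc. In 4T07 3 of 5 tested endothelial markers were lower in p27K high cells and 2 were not called. All 9 summed to 1.74 to 4.66 CPM in p27K high and 8.26 to 13.5 CPM in p27K negative cells of 4T07. Up to 4 of them were at 0 in a p27K high and up to 1 in a p27K negative library. In D2A1 the 2 endothelial markers tested of 9 were both lower in p27K high cells, with a summed level of 0.551 to 5.95 CPM in p27K high and 12.2 to 28.2 CPM in p27K negative cells, and up to 5 of the 9 were at 0 in a p27K high and up to 3 in a p27K negative library. Of 13 tested fibroblast markers there, 3 were higher and 7 lower, while their summed level overlapped at 912 to 1149 CPM in p27K high and 814 to 1053 CPM in p27K negative cells. Col5a2, chosen after its values were seen, had 0.201 to 0.613 CPM in p27K high and 19.2 to 37.9 CPM in p27K negative cells of D2A1, and Col1a2, chosen likewise, had 3.63 to 25.6 CPM in p27K high and 112 to 143 CPM in p27K negative cells. Pdgfra and Pdgfrb, chosen likewise, went the other way. Pdgfra had 431 to 574 CPM in p27K high and 228 to 274 CPM in p27K negative cells of D2A1. Pdgfrb had 253 to 387 CPM in p27K high and 117 to 171 CPM in p27K negative cells. Of the 9 endothelial markers 0 passed the filter on low counts in EMT6, so none was tested there. Up to 3 were at 0 in a p27K high and up to 1 in a p27K negative library of EMT6. In EMT6 the p27K negative library of tumour 1, which was highest in Tnc and Postn, also had the highest summed endothelial level, at 13.6 CPM against 2.35 to 3.39 CPM in the other p27K negative libraries. Among its p27K high libraries, Tnc and the endothelial sum (7.51 CPM) were highest in tumour 1. Postn in that gate was highest in tumour 3, at 8.63 CPM, where the endothelial sum was lowest, at 1.40 CPM.

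**Figure D5:**
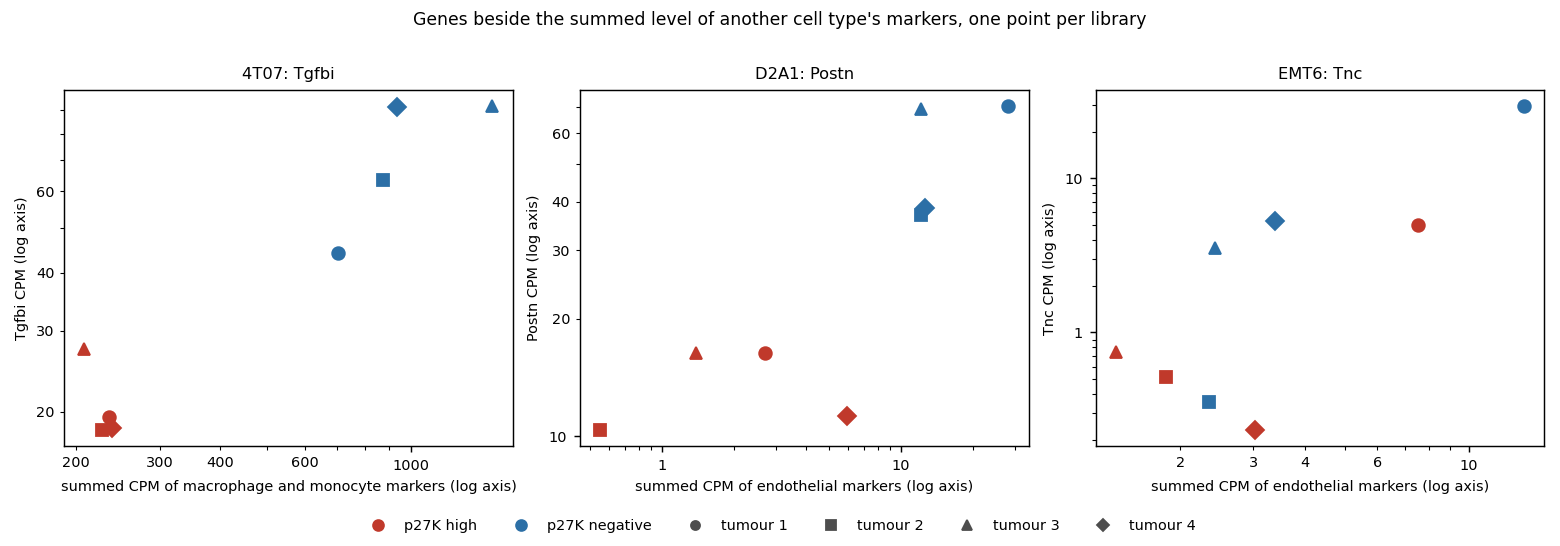
Tgfbi in 4T07, Postn in D2A1 and Tnc in EMT6 (CPM, log axis) beside the summed CPM of macrophage or endothelial markers (log axis), with 1 point for each library, p27K high in red and p27K negative in blue. The p27K negative libraries of 4T07 and D2A1 lie at the upper right, and in EMT6 tumour 1 is highest on both axes in the p27K negative gate. The endothelial markers were too low to be tested in EMT6.

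Whether the change differed between lines was tested in all libraries together, and 24.5% of genes were called. Of the 10, 4 were called: Tgfbi (adjusted p = 7.27e-06), Thbs3 (0.00182), Thbs2 (0.00234) and Tnc (0.00574). Over all genes, 23.3% were called between 4T07 and D2A1, 15% between 4T07 and EMT6 and 3.45% between D2A1 and EMT6. The change of Tgfbi was lower in 4T07 than in EMT6 by a difference of -2.31 ± 0.21 (adjusted p = 3.82e-06) and than in D2A1 by -1.75 ± 0.36 (adjusted p = 0.00283), the second of which was not called without D2A1 tumour 4 (adjusted p = 0.0662). That of Thbs2 was lower in D2A1 than in EMT6 by -1.74 ± 0.30 (adjusted p = 0.00372). That of Thbs3 was higher in D2A1 than in EMT6 by 1.16 ± 0.20 (adjusted p = 0.00288). That of Tnc was less negative in 4T07 than in EMT6 by 2.06 ± 0.42 (adjusted p = 0.00414). These last 3, and that of Tgfbi between 4T07 and EMT6, were called with every tumour left out in turn. Without the pairing of gates by tumour, those of Thbs2 and Tnc were not called (adjusted p = 0.277 and 0.244). The change of Thbs2 was also higher in 4T07 than in D2A1 by 1.02 ± 0.31 (adjusted p = 0.0236), which was not called without 4T07 tumour 4 or D2A1 tumour 1, 3 or 4 (adjusted p of 0.053 to 0.0881). That of Thbs3 was higher in 4T07 than in EMT6 by 0.64 ± 0.19 (adjusted p = 0.0312), which was not called without 4T07 tumour 3 or 4 or EMT6 tumour 2 or 3 (adjusted p of 0.0653 to 0.115). That of Tnc was less negative in D2A1 than in EMT6 by 1.71 ± 0.43 (adjusted p = 0.0356), and this call was lost without 4T07 tumour 1, D2A1 tumour 1, 2 or 3, or EMT6 tumour 1, 3 or 4 (adjusted p of 0.0509 to 0.132). Without the pairing, the second difference given here for each gene was not called (adjusted p of 0.0853 to 0.565).

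The receptors of these proteins, a list of 17 genes in all for integrin subunits, CD36, CD44, CD47, syndecans and LRP1, were described in the same way. In 4T07 4 of 17 tested were higher, beside 22.1% of all genes, and 5 lower, beside 23.6%. The other 8 were not called, and the median change was -0.18. In D2A1 8 of 14 were higher, beside 14.9% of all genes, and 6 not called, with a median of 0.45. In EMT6 8 of 14 were higher, beside 24.1%, and 6 not called, with a median of 0.32. The smallest p of the average was that of Itgb8, an integrin subunit that activates latent TGF-beta, at 1.41 ± 0.09 (adjusted p = 5.42e-10). It had 30.7, 48.9, 28.2 and 33.8 CPM in p27K high and 8.08, 14.6, 6.61 and 7.16 CPM in p27K negative cells of 4T07. Its change differed between lines (adjusted p = 0.00344), with 2.00 ± 0.12 in 4T07, 0.76 ± 0.17 in D2A1 and 1.38 ± 0.08 in EMT6. Itgb5, which pairs with the alpha-v subunit, rose by 0.40 ± 0.05 (adjusted p = 1.01e-05; differing between lines at an adjusted p of 0.0397), Cd47, a receptor of thrombospondin-1, by 0.33 ± 0.05 (adjusted p = 6.41e-05), and Lrp1, which takes up thrombospondins, by 0.47 ± 0.08 (adjusted p = 7.47e-05).

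Of 6 genes for TGF-beta ligands and receptors, 5 were tested in 4T07. There 4 were higher, beside 22.1% of all genes, and 1 was lower, beside 23.6%. In D2A1 4 of 6 were higher, beside 14.9%, and 2 not called. In EMT6 6 of 6 were higher, beside 24.1%. Tgfbr3, which encodes the co-receptor betaglycan, had the smallest p of the average, with 1.52 ± 0.06 (adjusted p = 2.05e-13) and a higher level in 12 of 12 tumours. It had 138, 111, 115 and 130 CPM in p27K high and 34.9, 27.8, 26.7 and 22.8 CPM in p27K negative cells of 4T07. Its change differed between lines (adjusted p = 4.65e-06), with 2.15 ± 0.11 in 4T07, 1.63 ± 0.12 in D2A1 and 0.67 ± 0.05 in EMT6, so the average joins unlike lines. The ligand gene Tgfb3 rose by 0.53 ± 0.07 on average (adjusted p = 1.29e-05), and the signalling receptors Tgfbr1 by 0.59 ± 0.10 (adjusted p = 9.35e-05) and Tgfbr2 by 0.30 ± 0.05 (adjusted p = 0.000139).

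Of 29 relatives, which are other thrombospondins, tenascins, SPARC-like, fibulin and CCN genes and relatives of osteopontin, 15 were tested in 4T07. Of these 9 were higher, beside 22.1% of all genes, and 1 was lower, beside 23.6%. In D2A1 16 were tested, with 1 higher, beside 14.9%, and 4 lower, beside 14.7%. In EMT6 15 were tested, with 7 higher, beside 24.1%, and 1 lower, beside 25.1%. The median change was 0.39, 0.16 and 0.28 in 4T07, D2A1 and EMT6. Fstl1, a SPARC-like secreted protein, had the smallest p of the average, -1.52 ± 0.17 (adjusted p = 7.26e-07), from a fall of 3.87 in D2A1, and its change differed between lines (adjusted p = 3.55e-05). There it had 1.00, 0.797, 1.08 and 1.27 CPM in p27K high and 15.6, 13.1, 25.5 and 12.7 CPM in p27K negative cells, the gate in which Col5a2 and Postn were also high. Wisp2 and Nov, members of the CCN family, rose by 1.34 ± 0.17 (adjusted p = 4.76e-06) and 0.58 ± 0.08 (adjusted p = 1.96e-05) on average. Fbln7, a fibulin, rose by 1.85 ± 0.29 (adjusted p = 4.17e-05) at levels of at most 2.26 CPM.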

How the data were processed

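RNA of p27K high and p27K negative cells was measured in 4 tumours of each of 3 lines. A table of raw gene counts (whole numbers) was deposited by the authors for each line, made by the sequencing provider per the labels' protocols. The build mm10 and the tool DESeq2 are named in the submitters' processing notes, while aligner, counter, library kit and strandedness were not given in the sources used here. All count columns were used. The 10 genes and the other lists were chosen with earlier results of these data known.

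Symbols on several entries were summed, entries without a gene name (at most 0.0109% of a library) and 4 date-like entries in each table were left out, and levels per length used the union of exons in GENCODE. Each line was fitted with edgeR 4.0.16 (R 4.3.3, quasi-likelihood, default filter, TMM, tumour as block), and all 24 libraries together with 12 tumour blocks for the average and the differences between lines. P-values were adjusted by Benjamini-Hochberg over all genes tested, and the SE is the change over the square root of F. For 4T07 and D2A1 the labels give the tumour of each library. EMT6 columns are numbered 0, 1, 2 and 4, unlike the titles, and are called tumours 1, 2, 3 and 4 in that order. Their pairing rests on the correlation of same-numbered libraries' deviations from group means over 5000 genes (0.608, 0.576, 0.813 and 0.646). This was 0.802, 0.702, 0.609 and 0.199 in 4T07 and 0.109, 0.211, 0.0777 and 0.295 in D2A1. P-values judge a change against the spread between tumours, which edgeR estimates with information from all genes. Genes named were all 10 members, Cdkn1b and Mki67, and up to 4 genes of each related list by smallest p of the average. Also named were the 3 closest genes to Fn1, Thbs1 and Sparc among those with a mean of at least 5 CPM (ratios with 0.5 CPM added), and the highest marker of a list. Ptprc, Krt8, Krt18, Epcam and Col5a2, and in D2A1 also Col1a2, Pdgfra, Pdgfrb and Cd14, were chosen after their values were seen. The fit was tested on simulated data.

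Alternatives were no block, size factors of DESeq2, total counts, DESeq2 1.42.0 as the test, no filter or a stricter one of 2 CPM, leaving out each tumour, and, added after seeing the data, leaving the 10 genes out of library sizes and thinning D2A1 libraries to 1335433 counts. Errors cover the spread between tumours and not copies made by PCR.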

Additional observations from a re-analysis of the deposited data

Results flagged for a closer look

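In 4 genes the change between gates differed between lines by the test of equal change in all libraries: Tgfbi (edgeR adjusted p = 7.27e-06), Thbs3 (adjusted p = 0.00182), Thbs2 (adjusted p = 0.00234) and Tnc (adjusted p = 0.00574).

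In 8 of 90 groups of 4 values 1 tumour stood far from the other 3, which chance gives in about 1 of 20 groups. Tnc accounted for 3 of them: the p27K high library of EMT6 tumour 1 had 5.01 CPM, against 0.233 to 0.748 CPM in the others, the p27K negative library of the same tumour had 29.4 CPM, against 0.352 to 5.26 CPM, and the p27K negative library of 4T07 tumour 3 had 23.4 CPM, against 9.42 to 10.5 CPM. Postn had 8.63 CPM in the p27K high library of EMT6 tumour 3, against 1.40 to 2.24 CPM in the others. Its within-tumour log2 ratio was 0.38 in 4T07 tumour 2 and -2.35 to -1.95 in the other tumours. Tgfbi had 27.3 CPM in the p27K high library of 4T07 tumour 3, against 18.3 to 19.5 CPM. Sparc had 939.6 CPM in the p27K high library of EMT6 tumour 3, against 1132 to 1157 CPM. The log2 ratio of Fbln2 was 0.48 in EMT6 tumour 3 and 0.29 to 0.31 in the other tumours.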

How the results depend on the processing

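Fn1, Spp1 and Thbs1 kept their direction and their call in all 3 lines under every alternative run, with changes of 1.19 to 1.38, 0.94 to 1.22 and 0.68 to 0.95 for Fn1 in 4T07, D2A1 and EMT6. Of the counts of calls recomputed, 238 stayed within 1.5 times the reported one and 12 did not. Without the replicate block, which drops the pairing of the gates by tumour, 6 members were called in 4T07 (1 lower; Tnc had an adjusted p of 0.216 and Thbs2 of 0.151), 7 in D2A1 and 4 in EMT6 (0 lower; Thbs3 had 0.123, Tnc 0.108, Tgfbi 0.229 and Fbln2 0.0641). The test of equal change then called 2 members and 1607 genes, and not Thbs2 (adjusted p = 0.172) or Tnc (adjusted p = 0.309). Leaving out each tumour in turn gave 1 to 3 members lower in 4T07 and 1 to 2 in EMT6. It gave 3698 to 7727 genes called in 4T07 and 2444 to 5051 in D2A1, the lowest in each without tumour 1. In EMT6 it gave 5084 to 6984 genes called. Over all alternatives, the genes called stayed within these ranges in 4T07 and D2A1 and numbered 4471 to 6984 in EMT6. The counts of members are to be read beside these counts of all genes. Thinned to equal depth, D2A1 had 7 members called, of 2662 genes.

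With total counts Thbs3 was -0.051 in 4T07 and -0.014 on average, Postn -0.083 and Sparc -0.0086 in 4T07 minus D2A1 and D2A1 minus EMT6, and Fbln2 -0.049 in 4T07 minus EMT6. With DESeq2 Postn was 0.13 in EMT6 and -0.58 in 4T07 minus D2A1, and Sparc -0.032 in D2A1 minus EMT6 (-0.031 with its size factors in edgeR). Without a filter Postn was -0.0087 in 4T07 minus D2A1, and Thbs2 was 0.13 in thinned D2A1. Of these sign changes the cause was not tested. With each tumour left out, values on both sides of 0 ran from -0.0094 to 0.14 for Thbs3 in 4T07, from -0.45 to 0.22 for Thbs2, -0.024 to 0.19 for Sparc and -0.48 to 0.17 for Tgfbi in D2A1, and from -0.86 to 0.82 for Postn in EMT6. For differences they ran from -0.84 to 0.42 for Postn and -0.16 to 0.038 for Fbln2 in 4T07 minus D2A1, and from -0.15 to 0.040 for Thbs1 and -0.059 to 0.18 for Sparc in D2A1 minus EMT6. The lowest counts in a library were 3 for Tgfbi and 21 for Thbs2 in D2A1, 0 for Postn in 4T07, and 6 for Postn and 4 for Tnc in EMT6.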
